A study of Saccharomyces cerevisiae with 4 samples.

Results

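Nuclear RNA surveillance in budding yeast rests on nucleases, their cofactors and a transcription termination complex, and the mRNAs of 10 of these proteins were followed here in purified nuclear mRNPs and in total lysate. The 10 genes are RRP6 (YOR001W), DIS3 (YOL021C), MTR4 (YJL050W), PAP2 (YOL115W), AIR1 (YIL079C), AIR2 (YDL175C), NRD1 (YNL251C), NAB3 (YPL190C), SEN1 (YLR430W) and RAT1 (YOR048C). They were chosen by these systematic names for the function of their products, but with earlier results of these data known. They are 10 of the 6692 open reading frames of the count table. RNA was sequenced from 2 eluates and from 2 total lysates of BY4741, a haploid laboratory strain. Both fractions came from cells with the allele sub2-FLAG-3C-ProtA::kanMX4 together with the allele hpr1-TS::hphNT1, so the lysates carry both tags as well. The eluates are particles held first by the DEAD-box ATPase Sub2 and then by Hpr1, a subunit of the THO complex, and were released in native form with biotin. The lysates were taken before the first affinity step. Cells were grown in YPD, a rich glucose medium, and ribosomal RNA was depleted before library preparation. The comparison asks which transcripts are over- or under-represented in the particles relative to the whole cell. What was captured is the RNA bound by 2 tagged proteins, which need not be every nuclear mRNP.

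The exosome is a ring of inactive subunits with a cap, to which the exonucleases Dis3 and Rrp6 attach, and it trims or destroys RNA from the 3′ end. In the nucleus it is fed by TRAMP, in which the poly(A) polymerase Pap2 (also called Trf4) adds a short tail, a zinc-knuckle protein, Air1 or Air2, binds the RNA, and the helicase Mtr4 unwinds it. The Nrd1 complex binds short motifs in nascent RNA through Nrd1 and Nab3, and the helicase Sen1 then releases RNA polymerase II, which ends many short noncoding transcripts and hands them to TRAMP and the exosome. Rat1 degrades RNA from the 5′ end and acts in the termination of mRNA genes. mRNAs made in cells that lack functional THO or Sub2 are known targets of this machinery.

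Total counts ranged from 22454265 to 29903666 in the eluates and from 11448755 to 14793216 in the lysates. URA3, LEU2 and MET17, which BY4741 lacks, had 0 counts in each library. Mitochondrial reading frames took 0.00717% and 0.00685% of the counts in the eluates, compared with 1.31% and 1.33% in the lysates. All 10 surveillance genes passed the filter on low counts, together with 6191 reading frames in all, and the lowest count of any of them in a library was 255. None of the 10 overlaps another annotated reading frame of the table on either strand. Levels are given as CPM, counts divided by library sizes adjusted by TMM, a scaling that assumes most genes to be alike between libraries. Each fold change is thus a change in proportion within a fraction, and more of one RNA cannot be told apart from less of the others. Reading frames with an adjusted p under 0.05 in edgeR's quasi-likelihood test were counted as called, and 44.2% of the 6191 were called higher and 44.8% lower in the eluate, so that a call alone sets a gene little apart. Of the 10 genes, 7 were higher in the eluate, 0 were lower and 3 were not called. An exact permutation test over samples (two-sided) cannot go below p = 0.333 with 2 eluates and 2 lysates, and the adjusted p-values rest on a spread shared across genes.

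The 3 genes of the Nrd1 complex rose most of the 10. Their log2 fold changes ran from 2.64 to 4.42, with a median of 3.45, beside a median of -0.01 over all 6191 reading frames. NRD1 encodes the subunit that binds both RNA and the phosphorylated tail of RNA polymerase II, and Nrd1 is known to limit its own mRNA through early termination. It lies on the minus strand of chromosome XIV from 172588 to 174315 (sacCer3). NRD1 had 449.5 and 389.8 CPM in the eluates, against 16.4 and 23.3 CPM in the lysates. Both eluates lay far above both lysates, and relative to their level the lysates differed more from each other than did the eluates. NRD1 rose by 4.42 on the log2 scale (standard error 0.15, adjusted p = 5.71e-13 from edgeR), which is 21.3-fold. This placed it 111th from the top of the 6191 reading frames. Per kb of coding length it was the lowest of the 10 genes in the lysates, at percentile 18.0 of all reading frames, and in the eluates it stood at percentile 93.5.

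NAB3, whose product pairs with Nrd1 and binds RNA through its own recognition domain, is on the minus strand of chromosome XVI from 185317 to 187725. It had 1698 and 1665 CPM in the eluates, against 139 and 169 CPM in the lysates. The groups did not overlap, and NAB3 was the most abundant of the 10 per kb in the eluates, at percentile 99.4 of all reading frames. NAB3 rose by 3.45 on the log2 scale (standard error 0.13, adjusted p = 1.83e-12 from edgeR), or 11.0-fold. SEN1, the helicase of the complex, has the longest coding sequence of the 10 with 6696 bases, on the plus strand of chromosome XII from 993434 to 1000129. It had 2421 and 2970 CPM in the eluates, against 432 and 434 CPM in the lysates. The lysates were nearly equal, while eluate 2 lay above eluate 1. SEN1 rose by 2.64 (standard error 0.14, adjusted p = 6.19e-11 from edgeR), or 6.22-fold.

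**Figure D1:**
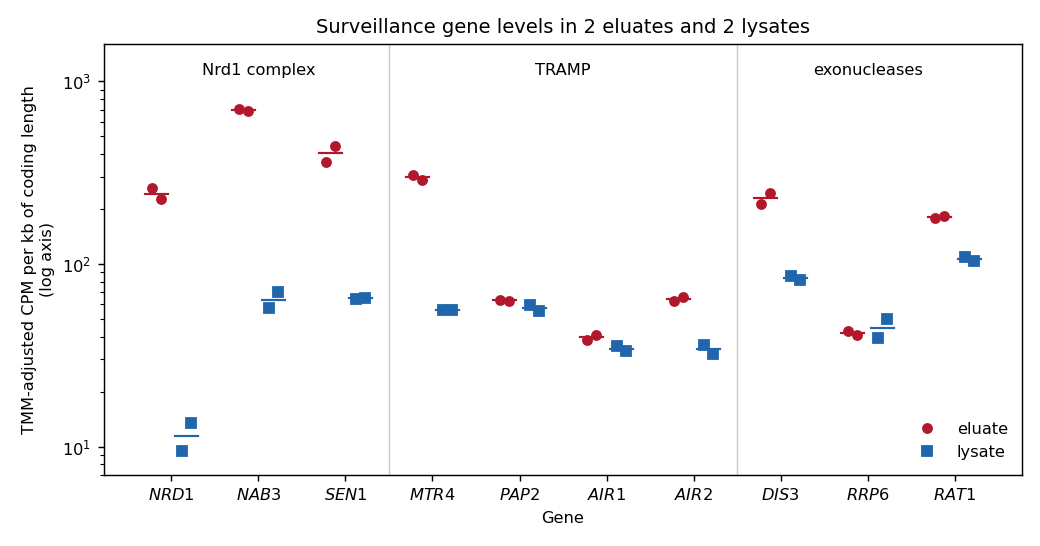
TMM-adjusted CPM per kb of coding length (log axis) of the 10 surveillance genes, with circles for the 2 eluates, squares for the 2 lysates and a line at each mean. NRD1 is the lowest gene in the lysates, at 9.46 to 13.5 CPM per kb, and reaches 226 to 260.1 CPM per kb in the eluates, while PAP2, AIR1 and RRP6 sit at nearly the same height in both fractions.

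Within TRAMP the genes parted. By log2 fold change, MTR4 stood well apart from PAP2 and both AIR genes. This did not hold for AIR2 relative to the median of all reading frames in the same class of coding length (5 classes, described below). On that scale AIR2 lay at 1.34 and MTR4 at 0.92, with AIR1 at 0.64 and PAP2 at -0.27. MTR4, the helicase that threads RNA into the exosome, is on the plus strand of chromosome X from 342522 to 345743. It had 988 and 934 CPM in the eluates, and 179 CPM in each of the lysates. The difference was far larger than the spread in either group. MTR4 rose by 2.42 on the log2 scale (standard error 0.11, adjusted p = 9.48e-12 from edgeR), or 5.36-fold. PAP2, the poly(A) polymerase, lies on the plus strand of chromosome XV from 101475 to 103229 and did not pass. It had 112 and 111 CPM in the eluates, against 104 and 97.4 CPM in the lysates. Its eluates lay just above its lysates, but by little (log2 fold change 0.14, standard error 0.09, adjusted p = 0.138 from edgeR).

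AIR1 and AIR2 encode paralogous zinc-knuckle proteins of similar coding length, 1083 and 1035 bases. AIR1 is on the minus strand of chromosome IX from 210923 to 212005 and AIR2 on the minus strand of chromosome IV from 144484 to 145518. AIR1 had 41.4 and 44.4 CPM in the eluates, against 38.3 and 36.0 CPM in the lysates, and did not pass (log2 fold change 0.21, standard error 0.10, adjusted p = 0.0686 from edgeR). AIR2 had 64.5 and 67.9 CPM in the eluates, against 37.2 and 33.3 CPM in the lysates. AIR2 rose by 0.91 (standard error 0.10, adjusted p = 5.63e-07 from edgeR), or 1.88-fold. Both paralogues were thus at a like level in the lysates, and of both only AIR2 was called higher in the eluates. With a filter of at least 10 CPM in 2 libraries, AIR1 and PAP2 were called as well, at log2 fold changes of 0.26 and 0.20 (adjusted p = 0.0264 and 0.0434 from edgeR), and AIR1 also without eluate 1 (0.29, adjusted p = 0.0453), with the lone eluate assumed to vary like the lysates. The ratio of AIR1 to AIR2 within a library, which does not depend on the scaling, was 0.614 and 0.624 per unit of length in the eluates, compared with 0.985 and 1.03 in the lysates. Both eluates lay below both lysates, and the difference of the mean log2 ratios was -0.70 (p = 0.333 in an exact two-sided permutation test, the smallest possible here, and 0.333 after adjustment over 3 paralogue pairs).

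The exonucleases spread over a narrower range. DIS3 encodes the catalytic subunit of the exosome, which has both exonuclease and endonuclease activity, and lies on the minus strand of chromosome XV from 282421 to 285426. It had 637 and 735 CPM in the eluates, against 257 and 245 CPM in the lysates. The eluates were well above the lysates, and DIS3 rose by 1.45 on the log2 scale (standard error 0.11, adjusted p = 4.89e-09 from edgeR), or 2.73-fold. RAT1, the nuclear 5′ to 3′ exonuclease, is on the same strand of chromosome XV from 418630 to 421650. It had 539 and 553 CPM in the eluates, against 329 and 313 CPM in the lysates. RAT1 rose by 0.77 (standard error 0.10, adjusted p = 3.01e-06 from edgeR), or 1.70-fold. RRP6 encodes the exonuclease that in yeast is found on the nuclear exosome alone, and its gene is on the plus strand of chromosome XV from 326832 to 329033. It had 95.1 and 89.8 CPM in the eluates, against 87.0 and 109.8 CPM in the lysates. RRP6 was the single gene of the 10 whose groups overlapped, and it was not called (log2 fold change -0.09, standard error 0.11, adjusted p = 0.443 from edgeR). It lay on either side of 0 depending on which lysate was left out, at -0.25 without lysate 1, where it was called lower (adjusted p = 0.0143) with the lone lysate assumed to vary like the eluates, and at 0.08 without lysate 2.

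**Figure D2:**
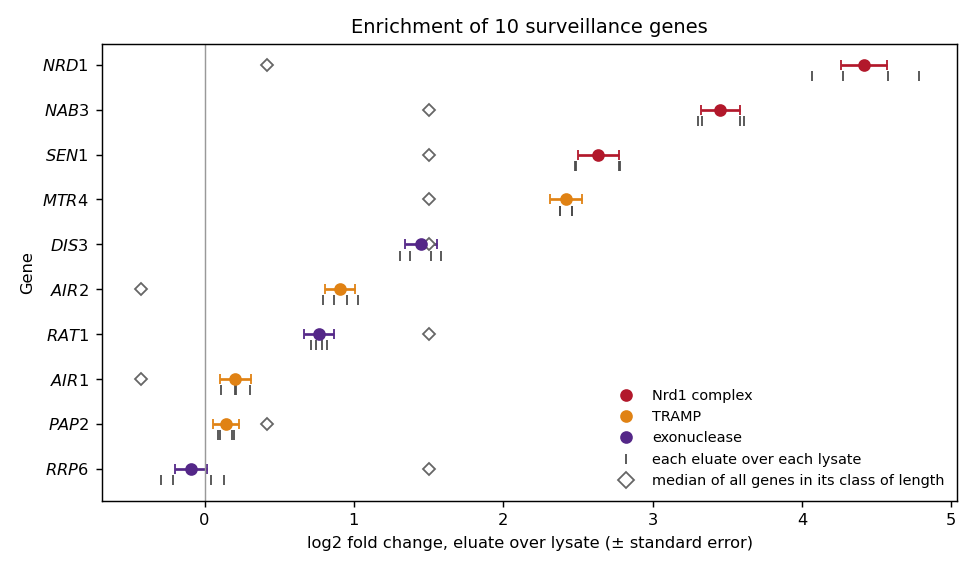
Log2 fold change in eluate over lysate of the 10 genes, with the standard error of edgeR as bars, the 4 ratios of single libraries as ticks and the median of all reading frames in the same class of coding length (5 classes of equal size) as diamonds. NRD1, NAB3, SEN1 and MTR4 lie between 2.42 and 4.42, to the right of their diamonds, DIS3 lies on its diamond, and RRP6, PAP2 and RAT1 lie to the left of theirs.

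Both eluates lay above both lysates for 9 of the 10 genes, and the background share was 46.9% of all reading frames. When each eluate was set against each lysate, the ranges of log2 ratios placed NRD1, NAB3, SEN1, MTR4 and DIS3 in that order, with no overlap between neighbours. AIR2 and RAT1 overlapped, and so did the neighbours among AIR1, PAP2 and RRP6. The order of levels changed between fractions. Per kb, NAB3, SEN1 and MTR4 led in the eluates, at 698, 403 and 298 CPM per kb on average. In the lysates RAT1 and DIS3 led at 106 and 83.5 CPM per kb, and SEN1, NAB3, PAP2 and MTR4 followed at 64.7, 63.7, 57.4 and 55.6. From SEN1 to MTR4 no neighbours in that order differed beyond their range.

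Together the 10 genes took 0.679% and 0.692% of all counts in the eluates, compared with 0.171% and 0.176% in the lysates (p = 0.333 in an exact two-sided permutation test, the smallest possible here). The 95% exact binomial intervals reached from 0.676% to 0.683% and from 0.689% to 0.695% in the eluates, and from 0.168% to 0.173% and from 0.174% to 0.179% in the lysates. Reads here carry no molecular identifiers and may stem from the same molecule, so these intervals hold counting error alone. The mean share was 3.96 times as high in the eluates. It was 6.98 times as high for the Nrd1 complex, 2.96 times for TRAMP and 1.74 times for the 3 exonucleases. These shares are of raw counts, without the TMM scaling. MTR4 held 21381 of the 26093 and 25571 of the 31675 TRAMP counts in the eluates. In the lysates it held 2794 of 5593 and 2206 of 4255. The Nrd1 complex made up 64.8% and 66.5% of the counts of the 10 genes in the eluates, compared with 36.3% and 38.2% in the lysates. Exonuclease genes made up 18.0% and 18.2% in the eluates, compared with 41.6% and 40.7% in the lysates.

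**Figure D3:**
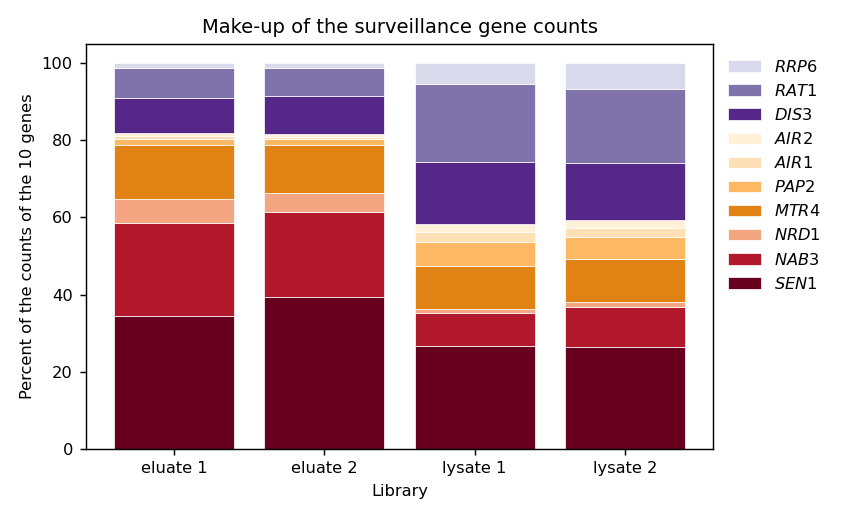
Each bar divides the counts of the 10 surveillance genes in 1 library into the 10 genes, as a percent of their sum, with the eluates left of the lysates. SEN1, NAB3 and NRD1 together fill 64.8% and 66.5% of the eluate bars, against 36.3% and 38.2% of the lysate bars.

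Coding length moved with enrichment across the whole table, and its part in the values of the surveillance genes was not tested. Between coding length and log2 fold change, Spearman's rho was 0.47 across 6191 reading frames, which share libraries and are not independent, and 0.27 across the 10 genes. With reading frames split by length into 5 classes of equal size, the class medians of the log2 fold change were -1.23, -1.13, -0.43, 0.42 and 1.5 from shortest to longest. In the longest class 82.7% of reading frames were called higher, and 5 of the 6 surveillance genes in it were. NRD1, with 1728 bases, lay in the fourth class and exceeded its median by 4.0, at percentile 98.1 of that class. NAB3, SEN1 and MTR4 lay above the median of the longest class by 1.95, 1.14 and 0.92. DIS3 was close to it, with a difference of -0.05. RAT1 and RRP6 lay below, by -0.73 and -1.59, and RRP6 stood at percentile 13 of the class. AIR1 and AIR2, in the third class, exceeded its median by 0.64 and 1.34, and PAP2 differed from that of the fourth by -0.27. In all, 6 of the 10 genes lay above the median of their class.

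**Figure D4:**
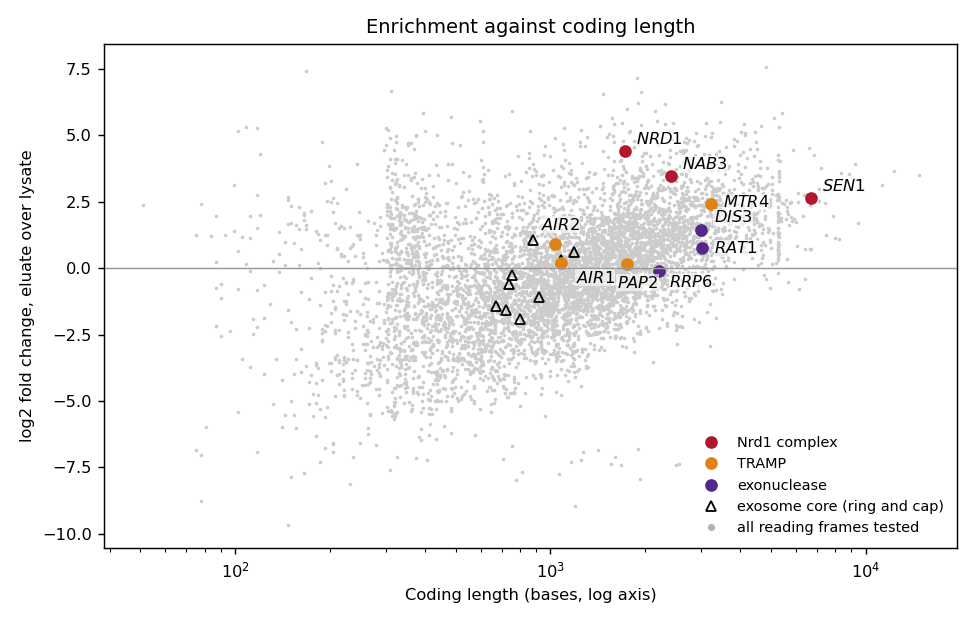
Log2 fold change in eluate over lysate against coding length (bases, log axis) for all 6191 reading frames tested (grey points), the 10 surveillance genes (coloured by role) and the 9 genes of the exosome core (open triangles). NRD1 and NAB3 lie high for their length, RRP6 lies low, and the exosome core sits at 672 to 1185 bases with log2 fold changes from -1.92 to 1.04.

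Of the 9 genes of the exosome ring and cap, 6 were called lower and 3 higher in the eluate, with a median log2 fold change of -0.59. Over all reading frames tested 44.8% were called lower, and in the second class of coding length, which holds 7 of the 9, the share was 67%. Of the 6 ring genes, 5 were lower. RRP42, a ring subunit, was the lowest, with 18.0 and 17.3 CPM in the eluates, against 67.8 and 65.5 CPM in the lysates. Its eluates were far below its lysates and it fell by 1.92 on the log2 scale (adjusted p = 8.44e-11 from edgeR). The ring genes RRP46, RRP45, SKI6 and MTR3 had log2 fold changes of -1.43, -1.10, -0.59 and -0.27. RRP43 was the ring gene that rose, by 0.62 (adjusted p = 8.43e-06 from edgeR). The cap genes, whose products line the entry of the channel, differed among themselves. CSL4 had 136 and 129 CPM in the eluates, against 65.7 and 62.7 CPM in the lysates, and rose by 1.04 (adjusted p = 2.41e-08 from edgeR). RRP4 rose by 0.30, and RRP40 fell by 1.56. The core genes are short, with a median coding length of 798 bases against 2306 for the 10 surveillance genes, and 6 of the 9 lay above the median of their own class of length.

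Of 8 genes of nuclear partners, 6 were higher and 1 lower, with a median log2 fold change of 0.84, beside 44.2% higher and 44.8% lower over all reading frames. PCF11, a cleavage factor that binds the tail of RNA polymerase II and acts in termination, was the highest. PCF11 had 170 and 154 CPM in the eluates, against 42.3 and 44.2 CPM in the lysates, and rose by 1.90 (adjusted p = 3.79e-11 from edgeR). MPP6, which tethers Mtr4 to the exosome, had 44.7 and 48.3 CPM in the eluates, against 15.0 and 12.9 CPM in the lysates. It rose by 1.73, but it overlaps another reading frame, and the sources used here do not give how reads were assigned by strand. UTP18 and NOP53, ribosome assembly factors that dock Mtr4, rose by 1.23 and 0.85. RTT103, which binds the polymerase tail and acts with Rat1, rose by 0.59 and also overlaps another reading frame. LRP1, the partner that stabilizes Rrp6, did not pass, as was the case for RRP6. LRP1 had 55.5 and 60.4 CPM in the eluates, against 55.5 and 56.0 CPM in the lysates (log2 fold change 0.06, adjusted p = 0.58 from edgeR). Relative to the median of its own class of coding length, LRP1 lay at 1.18, while RRP6 lay at -1.59. RAI1, the activator that binds Rat1, was the partner that fell. RAI1 had 27.1 and 22.7 CPM in the eluates, against 74.1 and 71.4 CPM in the lysates. It fell by 1.55 (adjusted p = 2.19e-09 from edgeR), while RAT1 rose. Both lay below the median of their own class of coding length, RAI1 by -1.12 and RAT1 by -0.73. The part of length in this contrast was not tested.

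Among 5 genes of the cytoplasmic counterparts, 3 were higher and 1 lower, beside the same 44.2% and 44.8%. The 3 that were higher are among 4 in the longest class of coding length, where 82.7% of reading frames were called higher. Relative to the median of that class, SKI2, XRN1, SKI3 and SKI7 lay at 0.36, 0.08, -0.93 and -1.57. SKI8, in the third class, lay at -0.62 relative to its median. XRN1, the cytoplasmic paralogue of RAT1, had 2830 and 3072 CPM in the eluates, against 888 and 1085 CPM in the lysates. It rose by 1.58 (adjusted p = 3.12e-08 from edgeR). SKI2 encodes the helicase that feeds the cytoplasmic exosome, as Mtr4 does in the nucleus, and rose by 1.86. SKI3 rose by 0.57, and SKI8, which overlaps another reading frame, fell by 1.05. SKI7 was not called (log2 fold change -0.07, adjusted p = 0.476 from edgeR). Genes of nuclear and cytoplasmic RNA decay were thus found on both sides, and whether their groups differ was not tested.

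**Figure D5:**
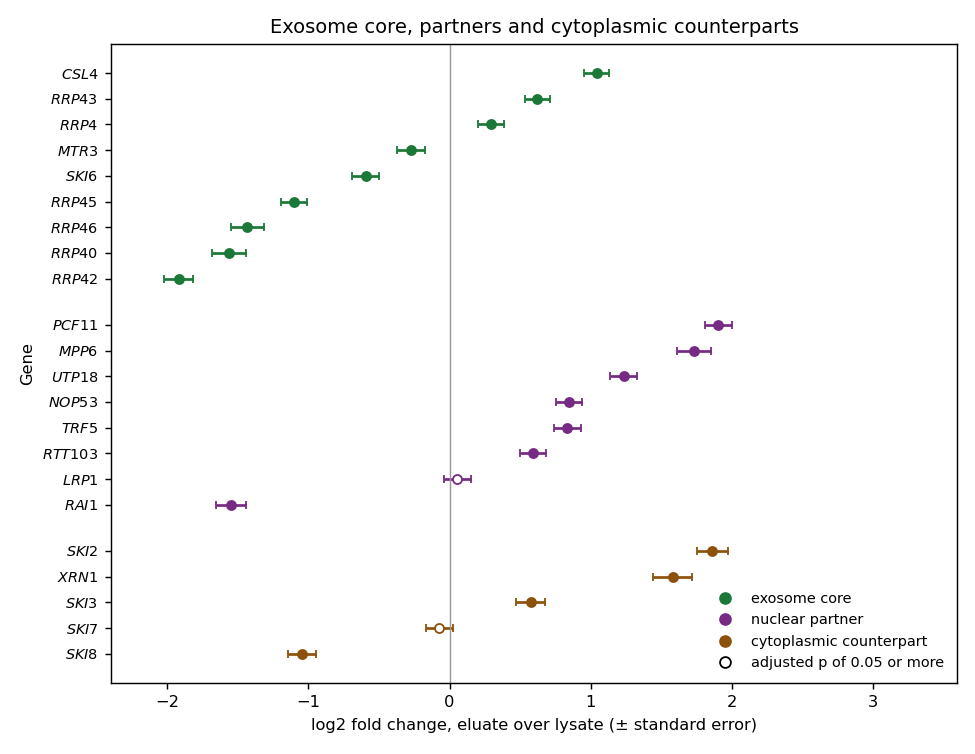
Log2 fold change in eluate over lysate, with the standard error of edgeR, of 9 exosome core genes, 8 genes of nuclear partners and 5 genes of cytoplasmic counterparts, with open circles for genes that were not called. The core spans -1.92 (RRP42) to 1.04 (CSL4), the partners -1.55 (RAI1) to 1.90 (PCF11) and the counterparts -1.05 (SKI8) to 1.86 (SKI2).

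For the other paralogue pairs, the ratio within a library was lower in both eluates as well. Which gene of a pair was divided by the other was a choice, so the shared direction has no meaning. PAP2 was set against TRF5, which encodes the other TRAMP poly(A) polymerase and rose by 0.84 (adjusted p = 6.14e-07 from edgeR). The ratio of PAP2 to TRF5 per unit of length was 1.16 and 1.23 in the eluates, compared with 1.91 and 1.96 in the lysates. The ratio of RAT1 to XRN1 was 0.289 and 0.273 in the eluates, compared with 0.563 and 0.438 in the lysates. Their coding lengths are 3021 and 4587 bases, and dividing by length leaves the trend of enrichment with length in this ratio. The differences of the mean log2 ratios were -0.69 and -0.82 (p = 0.333 for each in exact two-sided permutation tests, the smallest possible here, and 0.333 after adjustment over 3 pairs). Counts cover whole reading frames, so that partial and complete transcripts cannot be told apart in any of these values.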

How the data were processed

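For 2 eluates and 2 lysates, grouped here by title, the deposited values are raw read counts of each open reading frame. The submitters' processing notes name STAR 2.7.9a, featureCounts of Subread 2.0.3 and the build sacCer3. How strand and multiply mapping reads were handled is not stated in the labels or the paper. The paper describes the replicates as biological. A deposited table of the authors' own DESeq2 comparison (fold changes, p-values and a mean per gene) was not used.

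The quasi-likelihood test of edgeR 4.0.16 (R 4.3.3; default filterByExpr, TMM, glmQLFit) was run over the whole table with 1 term, fraction, and genes were called below 0.05 after Benjamini-Hochberg adjustment. The standard error was taken as the size of the log2 fold change divided by the root of F. CPM per kb was computed over coding length. Shares and ratios were computed with Python 3.11.15, and the fit was tested on simulated counts. In these only a small part of the reading frames was changed. The scaling was thus not tested for data where most are called, as here. Symbols of all 32 genes were matched in the RefSeq table of assembly R64. No sequence was used here.

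The 10 genes and the lists were chosen with earlier results of these data known. Named are the 10 genes and the listed genes that share a complex or are paralogues, with the highest and lowest of each list. Alternatives covered normalization, filter, test (DESeq2 1.42.0, limma-voom of limma 3.58.1, glmTreat), a replicate block, the trend with length and each library left out.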

Additional observations from a re-analysis of the deposited data

How the results depend on the processing

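The 7 genes called higher were called higher under each of 8 alternatives of normalization, filter, test or block that kept all libraries. Under these, from 2186 to 2773 of all reading frames tested were called higher, so that staying called sets a gene little apart. In 4 more alternatives 1 library was left out, and the lone library was assumed to vary like the other group. There the log2 fold changes of the 7 genes stayed positive, from 0.73 for RAT1 to 4.68 for NRD1. With glmTreat against a 1.5-fold change, 1 gene of the exosome core was higher and 4 lower. Of the nuclear partners 5 were higher and 1 lower, and of the cytoplasmic counterparts 2 were higher and 1 lower. Under that test 2186 of all 6191 reading frames were higher and 2254 lower. With at least 10 CPM in 2 libraries PAP2 and AIR1 were called too (log2 fold changes 0.20 and 0.26). With library sizes alone the median of all reading frames moved by -0.18 and PAP2 turned to -0.037. Leaving out 1 library, the number of the 10 genes called lower ranged from 0 to 1 (RRP6, without lysate 1), the log2 fold change of RRP6 ranged from -0.25 to 0.083 and that of AIR1 from 0.14 to 0.29, where it was called without eluate 1. The cause was not tested. Minus the median of their class of coding length, RRP6 had -1.59, DIS3 -0.049, RAT1 -0.73, MTR4 0.92, PAP2 -0.27, AIR1 0.64, AIR2 1.34, NRD1 4.0, NAB3 1.95 and SEN1 1.14, so that DIS3 and RAT1 changed sign. This follows from the construction, since the median of the longest class was 1.5. Replicate numbers are shared by the labels, but deviations of same-numbered libraries did not correlate (Pearson's r = -0.03 across 6191 reading frames). With the replicate block 7 of the 10 genes were higher and 0 lower, as without it, beside 2730 higher and 2769 lower of all 6191 reading frames. The lowest count behind any of the 10 genes was 255 (NRD1, lysate 1), and 2 libraries a group limit the precision of the test.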

Other observations

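The reading frames next to the 10 genes on their chromosomes lay on both sides. Of 20 adjacent reading frames in the table used here, 19 were tested. Of these, edgeR called 10 higher and 7 lower, with a median log2 fold change of 0.23. Over all reading frames tested, 44.2% were called higher and 44.8% lower. MRPL17, a mitochondrial ribosomal protein gene, lies 301 bases from NRD1 on the same strand. It had 494 and 719 raw counts in the eluates, compared with 963 and 676 in the lysates. Total counts were larger in the eluates, at 22454265 and 29903666 against 14793216 and 11448755. The log2 fold change of MRPL17, which allows for this, was -1.25. Both neighbours of NAB3, MIY2 and COA2, were lower, with log2 fold changes of -0.47 and -1.55. The neighbours of MTR4, IRC8 and CHM7, lie 266 and 229 bases away on its strand and rose by 0.49 and 0.92, against 2.42 for MTR4. RAD50, the other neighbour of NRD1, rose by 1.54. In all, 16 of the 19 lay below the gene they adjoin. Among the others, GID12 beside AIR2 rose by 2.33 and STD1 beside RAT1 by 1.68.

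Some partners that act in 1 complex changed their proportion between fractions. These pairs were chosen after their values were seen, and no test was made. The genes of each pair lie in different classes of coding length. Dividing by length is the same in both fractions, so it leaves the trend of enrichment with length in these ratios. Per unit of length, NRD1 stood at 0.369 and 0.326 of NAB3 in the eluates, compared with 0.165 and 0.192 in the lysates. MTR4 stood at 4.82 and 4.60 times PAP2 in the eluates, compared with 0.939 and 1.00 in the lysates. RAI1 stood at 0.130 and 0.107 of RAT1 in the eluates, compared with 0.584 and 0.593 in the lysates. LRP1 and RRP6 kept a ratio that overlapped, at 2.32 and 2.67 in the eluates, compared with 2.53 and 2.02 in the lysates.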
